A study of Homo sapiens with 8 samples.

Results

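The genes described here are 10 components of Wnt signalling that the pathway itself switches on or through which it reads out: AXIN2, SP5, NOTUM, NKD1, LGR5, RNF43, ZNRF3, TCF7, LEF1 and TCF7L2. They were taken by symbol from the 58735 genes of the expression table, and all 10 were found. The rule uses no measured value, but it was written with earlier results of these data known. RNA was measured in 8 libraries of HepG2, an established line of human hepatocellular carcinoma cells. The 4 control libraries came from cells labelled WT and infected with a control lentivirus, and the 4 DNMT3A libraries from cells labelled DNMT3A overexpression, whose lentivirus delivered DNMT3A, an enzyme that adds methyl groups to unmethylated DNA. Library names of both groups carry EGFP, so the 2 groups share an infection and a marker gene in name. The sources used here do not give the time after infection, or whether cells were selected or cloned.

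In the canonical Wnt pathway, a Wnt protein binds a Frizzled receptor and an LRP co-receptor, and this stops a cytoplasmic complex built on Axin and APC from marking beta-catenin for destruction. Stabilised beta-catenin enters the nucleus and binds TCF/LEF factors, which sit on DNA and otherwise recruit repressors. Several of the genes it switches on encode inhibitors of the same pathway, so that the signal limits itself. HepG2 is known to carry a deletion in CTNNB1, the beta-catenin gene, that removes the sites by which beta-catenin is marked for destruction. In the liver the pathway is known for keeping the genes of hepatocytes near the central vein switched on.

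The targeted gene was read first as a check of the labels. DNMT3A was measured at 3.62, 3.89, 3.45 and 3.64 FPKM (a fragment count divided by gene length and by the library's total) in control libraries 1 to 4, and at 9.75, 10.2, 8.51 and 7.26 FPKM in DNMT3A libraries 1 to 4. Every DNMT3A library lay above every control library (log2 difference 1.09, limma adjusted p = 0.000122), and libraries 2 and 4 marked the ends of the overexpressing group. Between 15911019 and 17677093 reads per library could be recovered from the table. All 8 hepatocyte markers were above 1 FPKM, with ALB at a mean of 6220 FPKM. None of 6 fibroblast and 5 endothelial markers reached that level. Among 6 leukocyte markers only LYZ did (279.5 FPKM), while PTPRC and CD3E were listed at 0. The summed leukocyte level, nearly all LYZ, was 198 to 264 FPKM in controls and 315 to 346 FPKM in DNMT3A libraries, and its part in the results below was not tested.

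Of the 10 genes, SP5, NOTUM and AXIN2 were lower in DNMT3A-overexpressing cells, none was higher, 6 did not pass the test, and LEF1 was too low to test. In mean FPKM, SP5 fell by 43.1%, NOTUM fell by 25.0% and AXIN2 fell by 24.2%. NKD1, the ubiquitin ligases RNF43 and ZNRF3, the R-spondin receptor LGR5 and the factors TCF7 and TCF7L2 all had intervals that include 0. The test was limma on log2(FPKM + 1), with p-values adjusted over all 11620 genes that had a mean of at least 1 FPKM and a call at an adjusted p under 0.05. On this scale the change of a low gene is understated. Over those genes 20.6% were called in either direction, 10.6% lower and 9.93% higher. Thus 3 of 9 tested members were called lower, against a background of 10.6%. The median log2 difference of the 9 was -0.13, against -0.01 for all tested genes, and their median absolute difference of 0.131 was close to the 0.136 of all tested genes. Because no label ties the 4 libraries of a group to separate cultures, their spread, against which p-values are set, may be technical. In bulk RNA, fewer cells that express a gene and less RNA per cell cannot be told apart. The count of 3 fell to 1, SP5, without the filter on low genes and in the fits without control library 1, DNMT3A library 1 or DNMT3A library 3. In that order, these settings called 5.24%, 14.7%, 15% and 13.9% of all genes they tested, so calls were fewer in general.

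**Figure D1:**
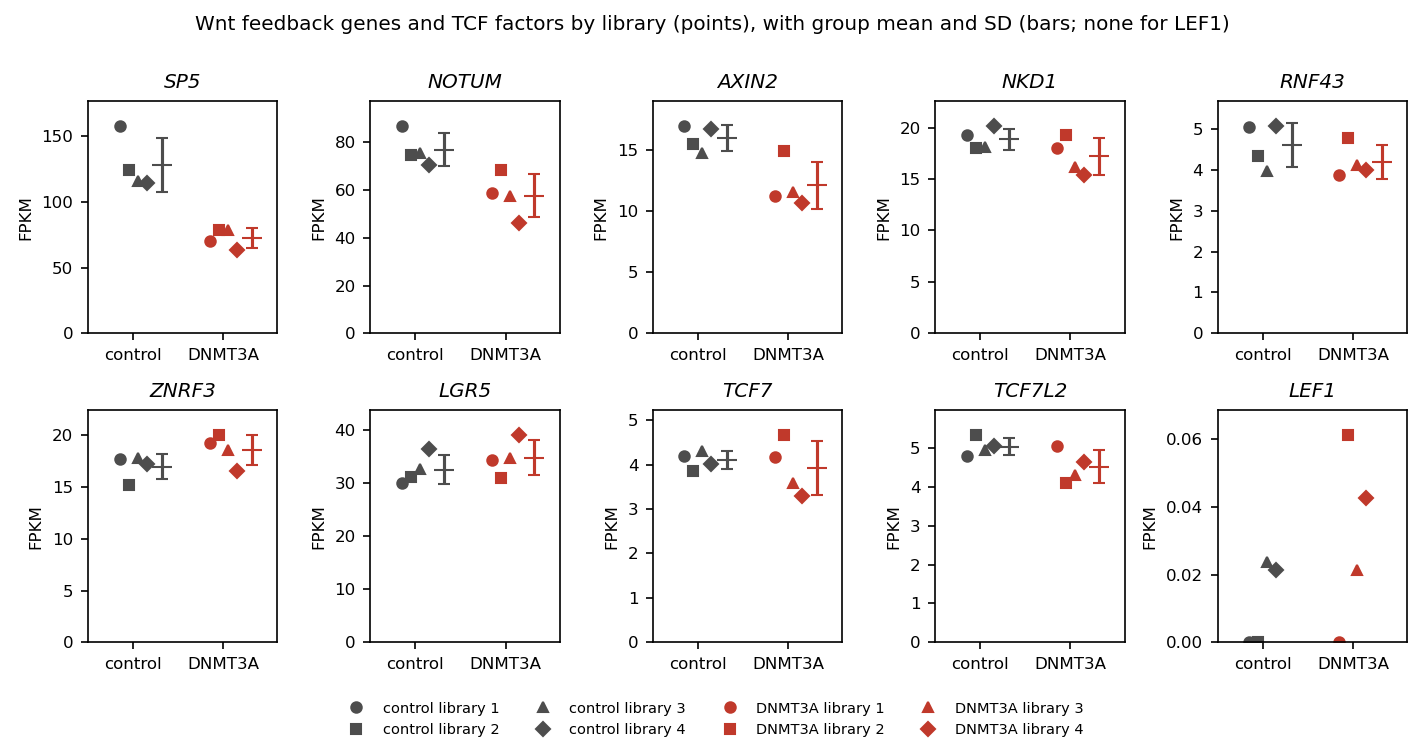
FPKM of the 10 genes in each of the 8 libraries, with 1 panel per gene, a linear axis from 0, a symbol for each library number, and group means with SD (n = 4) except for LEF1. The control and DNMT3A points of SP5 and NOTUM do not overlap, those of the other 8 genes do, and DNMT3A library 2 (squares) is often the highest of its group.

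SP5 is a zinc-finger transcription factor of the Sp family, a direct beta-catenin target that is known to repress other Wnt target genes. It lies on chromosome 2 (hg38 chr2:170715351-170718078, plus strand; ENSG00000204335). SP5 was measured at 158, 124, 116 and 114 FPKM in control libraries 1 to 4 and at 70.04, 78.8, 78.9 and 63.4 FPKM in DNMT3A libraries 1 to 4. The groups were well apart, with the highest overexpressing library below the lowest control, and control library 1 stood above the other controls. Group means were 128 ± 20.3 and 72.8 ± 7.52 FPKM (SD, n = 4 each), a log2 difference of -0.80 (SE 0.112, 95% interval -1.05 to -0.55). The limma adjusted p was 0.00161, and the two-sided exact permutation p was 0.0286, the smallest that 70 assignments can give. Between 3788 and 5176 reads per control library and 2297 to 2973 per DNMT3A library stood behind these values. SP5 kept its call in all 16 alternative analyses, with log2 differences from -0.85 to -0.70.

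The sequence upstream of SP5 is shown because it is the gene with the strongest fall and because TCF/LEF factors are known to bind a short core, TCAAAG, which reads CTTTGA on the other strand. The RefSeq promoter table (GRCh38.p14) had windows for 5 of the 10 genes: SP5, RNF43, TCF7, TCF7L2 and LEF1. NOTUM and AXIN2, which were also called, had none, so SP5 was the only called gene searched. Whether cores go with a fall could therefore not be tested. The 250 bases before the RefSeq start of SP5 are chr2:170715087-170715336, plus strand, printed 5′ to 3′ with the cores in capitals. For contrast, the second line gives the 189 bases of the RNF43 window that lie before its annotated first exon (chr17:58417596-58417784, minus strand), a gene that did not pass the test.
SP5: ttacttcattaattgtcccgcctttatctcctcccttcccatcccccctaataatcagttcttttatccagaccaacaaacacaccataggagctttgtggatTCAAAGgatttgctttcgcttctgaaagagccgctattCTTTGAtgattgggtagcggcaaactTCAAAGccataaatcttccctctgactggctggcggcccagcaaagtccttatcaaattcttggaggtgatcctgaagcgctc
RNF43: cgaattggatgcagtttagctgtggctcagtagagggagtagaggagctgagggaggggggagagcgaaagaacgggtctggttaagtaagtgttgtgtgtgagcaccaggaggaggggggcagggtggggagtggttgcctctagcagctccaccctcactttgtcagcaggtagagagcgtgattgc

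SP5 held 3 cores, at 147 to 142, 109 to 104 and 83 to 78 bases before the start, the middle one read on the opposite strand. In the 250 bases before the start, 11.2% of all 35116 windows in the table held at least 1 core on either strand, 0.977% held at least 2 and 0.0655% (23 windows) at least 3. No core was found in the other 8 windows of these genes (2 each of RNF43 and TCF7, 3 of TCF7L2 and 1 of LEF1). Neither core overlaps itself or its reverse complement, and a match describes letters only. The SP5 stretch held 6 CpG pairs, the dinucleotide that DNMT3A methylates, against a median of 11 over all windows, and 41.1% of windows held no more than that. The window of RNF43 held 4. Methylation and factor binding were not measured in these libraries.

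NOTUM and AXIN2 are feedback inhibitors that act at opposite ends of the pathway. NOTUM is a secreted enzyme that removes the lipid a Wnt protein needs to bind its receptor. Its gene lies at hg38 chr17:81952507-81961840 on the minus strand (ENSG00000185269). NOTUM was measured at 86.7, 74.6, 75.5 and 70.3 FPKM in control libraries 1 to 4 and at 58.5, 68.4, 57.2 and 46.1 FPKM in DNMT3A libraries 1 to 4. All DNMT3A libraries were below all controls, but library 2 of the DNMT3A group came within a small distance of control library 4. The means were 76.8 ± 6.98 and 57.6 ± 9.10 FPKM (SD, n = 4 each). The log2 difference was -0.42 (SE 0.112, 95% interval -0.67 to -0.17, limma adjusted p = 0.0272), with an exact permutation p of 0.0286. NOTUM lost its call when control library 1, 2 or 3, or library 1 or 3 of the DNMT3A group, was left out (adjusted p = 0.055 to 0.07) and without the filter (adjusted p = 0.0949).

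AXIN2 is the inducible scaffold of the complex that destroys beta-catenin and is widely used as a reporter of Wnt activity. It lies at hg38 chr17:65528563-65561647 on the minus strand (ENSG00000168646). AXIN2 was measured at 16.9, 15.5, 14.7 and 16.7 FPKM in control libraries 1 to 4 and at 11.2, 14.9, 11.6 and 10.7 FPKM in DNMT3A libraries 1 to 4. The groups overlapped, since DNMT3A library 2 was just above control library 3, while the other 3 DNMT3A libraries were well below all controls. The means were 16.0 ± 1.05 and 12.1 ± 1.92 FPKM (SD, n = 4 each). The log2 difference was -0.38 (SE 0.0966, 95% interval -0.60 to -0.17, limma adjusted p = 0.0217), and the exact permutation p was 0.0571. AXIN2 lost its call when control library 1 or 4, or library 1 or 3 of the DNMT3A group, was left out (adjusted p = 0.0528 to 0.0605) and without the filter (adjusted p = 0.0751).

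Groups that did not overlap were counted for 2 of the 9 tested genes, SP5 and NOTUM, both lower in DNMT3A libraries. Over all tested genes 25.1% had groups that did not overlap, and 13% had all DNMT3A libraries below all controls. The count was 1 when libraries were scaled by the total of their recovered reads, under which the groups of NOTUM overlapped. It was 4 without DNMT3A library 2, where 34% of all tested genes had groups that did not overlap. That library was the highest of its group for 6 of the 9 tested genes, and DNMT3A library 4 was the lowest of its group for 6 of the 9. How often this holds over all tested genes was not computed, so it is not read as particular to these genes.

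**Figure D2:**
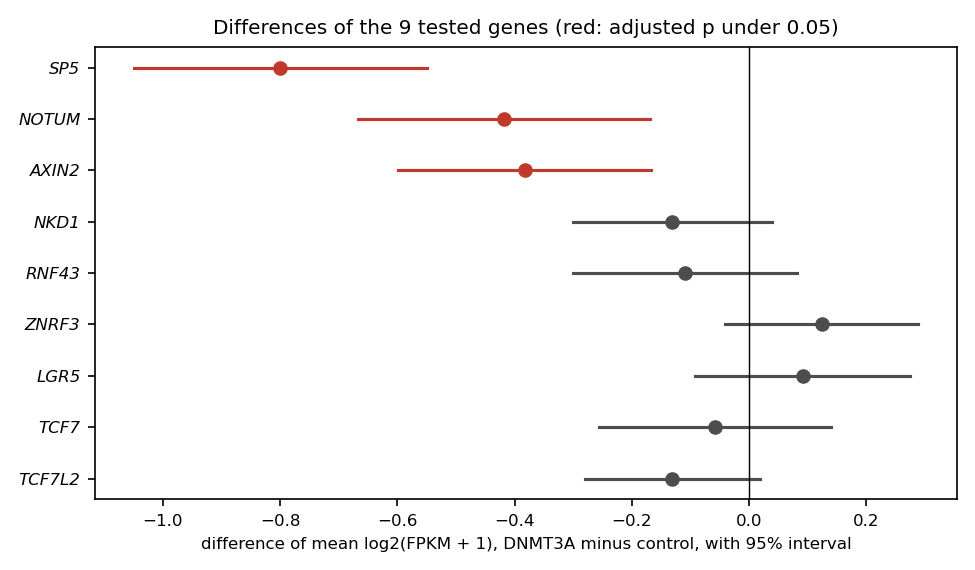
Difference of mean log2(FPKM + 1), DNMT3A minus control, for the 9 tested genes on the x axis, with 95% intervals from the limma fit (lines). The intervals of SP5, NOTUM and AXIN2 lie below 0, and those of the other 6 genes include 0.

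NKD1 binds Dishevelled and is another inhibitor inside the cell. It lies at hg38 chr16:50548330-50649249 (plus strand; ENSG00000140807). NKD1 was measured at 19.2, 18.0, 18.1 and 20.2 FPKM in control libraries 1 to 4 and at 18.0, 19.3, 16.2 and 15.3 FPKM in DNMT3A libraries 1 to 4. DNMT3A libraries 3 and 4 were below all controls, library 1 was level with the lowest control, and library 2 was above 3 of the 4 controls. The log2 difference was -0.13 (95% interval -0.30 to 0.04, limma adjusted p = 0.247). The interval of NKD1 includes 0 and overlaps those of NOTUM and AXIN2.

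RNF43 and ZNRF3 are membrane ubiquitin ligases that remove Frizzled receptors from the cell surface, and LGR5, with R-spondins, takes these ligases away. RNF43 (hg38 chr17:58352500-58417595, minus strand; ENSG00000108375) was measured at 5.05, 4.33, 3.97 and 5.07 FPKM in control libraries 1 to 4 and at 3.86, 4.78, 4.12 and 3.99 FPKM in DNMT3A libraries 1 to 4. Its log2 difference was -0.11 (95% interval -0.30 to 0.08, limma adjusted p = 0.395). The controls alone spanned nearly the whole range of RNF43.

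ZNRF3 (hg38 chr22:28883592-29057487, plus strand; ENSG00000183579) was measured at 17.6, 15.1, 17.8 and 17.2 FPKM in control libraries 1 to 4 and at 19.2, 20.01, 18.5 and 16.6 FPKM in DNMT3A libraries 1 to 4. Of the DNMT3A libraries, 1, 2 and 3 were above all controls and library 4 was among them. The log2 difference of ZNRF3 was 0.12 (95% interval -0.04 to 0.29, limma adjusted p = 0.259).

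LGR5 (hg38 chr12:71439770-71586310, plus strand; ENSG00000139292) marks stem cells in several epithelia. It was measured at 30.0, 31.3, 32.7 and 36.5 FPKM in control libraries 1 to 4 and at 34.4, 31.0, 34.9 and 39.1 FPKM in DNMT3A libraries 1 to 4. The log2 difference of LGR5 was 0.09 (95% interval -0.09 to 0.28, limma adjusted p = 0.462), and the groups overlapped. Library 4 was the highest in both groups for this gene.

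TCF7, LEF1 and TCF7L2 encode DNA-binding partners of beta-catenin with an HMG box. TCF7 (hg38 chr5:134114711-134151865, plus strand; ENSG00000081059) was measured at 4.20, 3.86, 4.31 and 4.02 FPKM in control libraries 1 to 4 and at 4.16, 4.67, 3.58 and 3.29 FPKM in DNMT3A libraries 1 to 4. The DNMT3A libraries spread to both sides of the controls, and the log2 difference of TCF7 was -0.06 (95% interval -0.26 to 0.14, limma adjusted p = 0.681). The sign of this estimate turned without DNMT3A library 4, to 0.0059.

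TCF7L2 (hg38 chr10:112950250-113167678, plus strand; ENSG00000148737) was measured at 4.80, 5.33, 4.94 and 5.05 FPKM in control libraries 1 to 4 and at 5.05, 4.09, 4.30 and 4.63 FPKM in DNMT3A libraries 1 to 4. DNMT3A libraries 2, 3 and 4 were below all controls, and library 1 was within them. The log2 difference of TCF7L2 was -0.13 (95% interval -0.28 to 0.02, limma adjusted p = 0.194), with an exact permutation p of 0.0857.

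LEF1 (hg38 chr4:108047545-108168956, minus strand; ENSG00000138795) had few reads. It had 0, 0, 2 and 2 reads in control libraries 1 to 4 and 0, 6, 2 and 4 reads in DNMT3A libraries 1 to 4, at most 0.0611 FPKM. A library with 0 reads allows up to 3 reads, which for control library 1 is 0.0351 FPKM and for DNMT3A library 1 is 0.0321 FPKM, by counting error only. At this depth a difference in LEF1 was not detectable (exact permutation p = 0.2857). TCF7 and TCF7L2 made up nearly all the FPKM listed for the 3 factors. Whether LEF1 RNA was missed in the counting was not tested.

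Ordered by level per gene length in the controls, the genes ran from SP5 through NOTUM, LGR5, NKD1, ZNRF3, AXIN2, TCF7L2, RNF43 and TCF7 to LEF1. Neighbours whose ranges over the 4 controls overlapped were ZNRF3 with AXIN2, TCF7L2 with RNF43, and RNF43 with TCF7. In DNMT3A libraries SP5 was still above NOTUM within 4 of 4 libraries, but their ranges met. ZNRF3 stood above NKD1 within 4 of 4 DNMT3A libraries, the reverse of the order in the controls, though their ranges overlapped, and AXIN2 was below both. The ranges of TCF7L2, RNF43 and TCF7 overlapped there too. The levels divide by all exon bases of a gene, and for TCF7 these were 10063 bases where its longest principal transcript had 3045, and for ZNRF3 6968 where it had 2878. Per principal transcript, a choice made after seeing the data, the control means became 41.0 FPKM for ZNRF3 and 13.5 FPKM for TCF7, against 17.0 and 4.10 FPKM as deposited. NOTUM became 99.5, LGR5 37.1, AXIN2 19.6, TCF7L2 8.91 and RNF43 6.20 FPKM, so ZNRF3 then stood above LGR5 and TCF7 above TCF7L2 and RNF43. NKD1 became 19.2 FPKM, and AXIN2 was then above it in 2 of 4 controls with overlapping ranges, where the deposited values had NKD1 above AXIN2 without overlap. This scaling leaves each gene's ratio of mean FPKM between groups as it was, and the limma fit was not repeated on the rescaled values.

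Ratios of 2 genes within a library do not depend on the library total. For each of 36 pairs among the 9 tested genes, the log2 FPKM ratio was compared between groups with a two-sided exact permutation test. In 16 pairs the groups did not overlap (unadjusted p = 0.0286 each). The share of such pairs among other tested genes was not computed, and pairs that share a gene are not independent. For single genes, 25.1% of all tested had groups that did not overlap. None was under 0.05 after Benjamini-Hochberg adjustment over 36 pairs, where the smallest value was 0.0644 and the design allows no unadjusted p below 0.0286. SP5 was in 8 of these 16 pairs, thus with each of the other genes, and AXIN2 and ZNRF3 were in 5 each. Some of these pairs were nearly tied. For AXIN2 to SP5 the highest control was at a log2 ratio of -2.772 and the lowest DNMT3A library at -2.77. For ZNRF3 to TCF7 these were 2.099 and 2.1. TCF7 was in 4, NOTUM and NKD1 in 3, RNF43 in 2, and LGR5 and TCF7L2 in 1.

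The ratio of SP5 to ZNRF3 was 7.502 in controls and 3.91 in DNMT3A libraries, and that of SP5 to LGR5 was 3.90 and 2.09. For NOTUM to ZNRF3 it was 4.52 and 3.08, and for AXIN2 to ZNRF3 0.941 and 0.647, each without overlap between the groups. The ratio of AXIN2 to NKD1 was 0.845 and 0.6996, also without overlap, and that of NOTUM to NKD1 was 4.06 and 3.33, with overlapping groups (exact permutation p = 0.0857). AXIN2 and NOTUM stayed near 1 ratio, 0.208 in controls and 0.210 in DNMT3A libraries (exact permutation p = 0.8571). The 2 ligases RNF43 and ZNRF3 had a ratio of 0.271 in controls and 0.225 in DNMT3A libraries, with overlapping groups (exact permutation p = 0.0857).

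**Figure D3:**
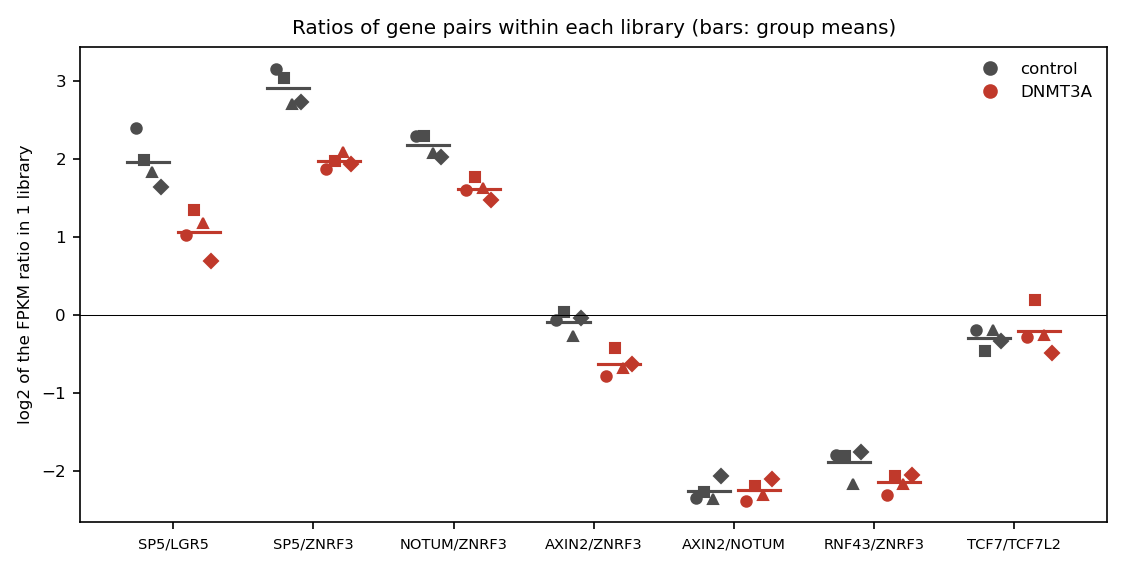
Log2 of the FPKM ratio of 7 gene pairs (x axis) in each library, with 1 symbol per library number as in the plot of levels by library and horizontal bars for group means (n = 4). The groups are apart for SP5/LGR5, SP5/ZNRF3, NOTUM/ZNRF3 and AXIN2/ZNRF3, and overlap for AXIN2/NOTUM, RNF43/ZNRF3 and TCF7/TCF7L2.

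The genes with the most similar profiles over the 8 libraries were looked up for the 3 called members, by the root mean square difference of log2(FPKM + 1) centred on each gene's mean. These similarities are descriptions over 8 libraries that share the group difference. For SP5 they were CITED4 (0.0762), a transcriptional co-activator, MYL9 (0.0821), a myosin light chain, and ASS1 (0.103), an enzyme of the urea cycle. For NOTUM they were CDC42EP1 (0.0338), an effector of the GTPase CDC42, PROC (0.0356), the anticoagulant protein C of hepatocytes, and MYH14 (0.0401), a non-muscle myosin. For AXIN2 they were HES6 (0.0639), a transcription factor of the HES family, TAGLN (0.0677), an actin-binding protein, and GPAA1 (0.0747), a subunit of the enzyme that attaches lipid anchors to proteins.

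Genes that lie near the 3 called members were called in shares of 14.3% (SP5), 33.3% (AXIN2) and 15.8% (NOTUM), beside 20.6% of all tested genes. Within 1 Mb of SP5, 14 other genes were tested, of which 1 was called higher and 1 lower, with a median log2 difference of -0.09. Around AXIN2 the counts were 1 higher and 2 lower of 9 (median -0.11), and around NOTUM 3 higher and 6 lower of 57 (median -0.07). NOTUM and AXIN2 are on the same chromosome, but far apart.

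No strand-marking step is named in the labels' protocols, so reads of overlapping genes cannot be told apart. AXIN2 shares 1316 of its 5226 exon bases with AC004805.1, which was at 0.0893 FPKM in controls and 0.0266 FPKM in DNMT3A libraries. RNF43 shares 4326 of 7505 bases with AC004687.2, which was under 0.05 FPKM in both groups. It also shares 1521 bases with TSPOAP1-AS1 on the other strand (0.0761 FPKM in controls and 0.0471 FPKM in DNMT3A libraries). A further 143 bases are shared with SUPT4H1 (0.0372 and 0.0135 FPKM). How reads on shared bases were counted is not known. The levels of RNF43 and AXIN2, and their places in the order of levels, may therefore be understated. TCF7 shares 210 bases with SKP1, which was at 10.6 and 10.7 FPKM, above TCF7 itself. LGR5 shares 208 bases with the antisense gene AC078860.1 (1.46 and 1.124 FPKM).

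The rest of the pathway, its other targets and liver zonation genes were read from 10 lists of 136 genes, of which 64 passed the filter. Of these 12 were called higher, 8 lower and 44 not called, a share of 31.2% beside the 20.6% of all tested genes, with a median log2 difference of 0.07. One of the lists holds periportal liver genes, which are not components of the pathway, and without it 17 of 60 were called (28.3%). In the 6 lists upstream of the nucleus 4 of 29 were called (13.8%), all higher, beside the 9.93% called higher over all tested genes. The count of 20 called genes ranged from 11 to 22 when 1 library was left out. It was 11 without control library 1, 12 without control library 3 and 13 without DNMT3A library 3, where 14.7%, 13% and 13.9% of all tested genes were called.

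**Figure D4:**
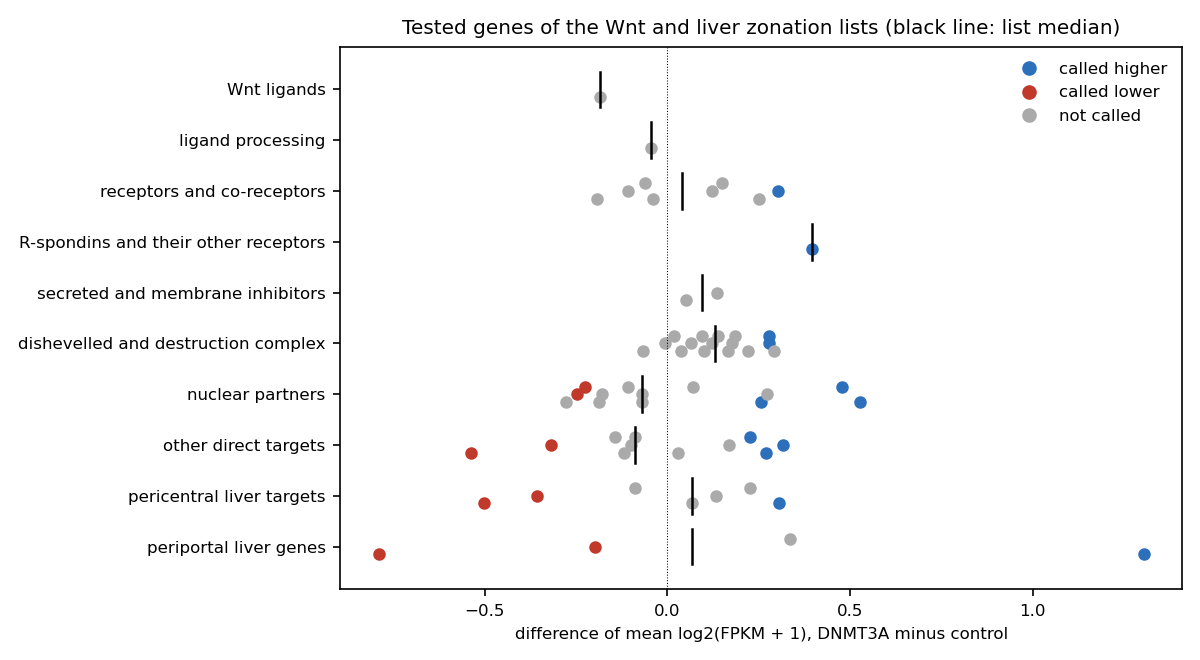
Difference of mean log2(FPKM + 1), DNMT3A minus control (x axis), of each of the 64 tested list genes, in 1 row per list, coloured by its call at an adjusted p of 0.05, with the list median as a black line. Called genes are on both sides of 0 in the lower 4 rows, and the far right point is PCK1 at 1.30.

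Of the Wnt ligands 18 of 19 were under the filter, 5 of them listed at 0 in all libraries. CTBP2, a co-repressor, and WLS, both used by most cell types and named here after their values were seen, were at 0.0199 FPKM on average and at 0, so a value of 0 in this table is not read as absence of the RNA. WNT3, the one tested, was at 3.40 ± 0.116 FPKM in controls and 2.88 ± 0.349 FPKM in DNMT3A libraries (SD, n = 4 each; log2 difference -0.18, limma adjusted p = 0.107). Of the 2 genes for ligand processing, PORCN, which attaches the lipid that NOTUM removes, had a log2 difference of -0.04 (limma adjusted p = 0.748), and WLS is the carrier of Wnt to the surface. Among 16 receptors and co-receptors 8 were tested, and 1 rose (12.5% called, beside 20.6% of all tested genes). That gene was LRP6, from 5.09 ± 0.355 to 6.52 ± 0.535 FPKM (log2 difference 0.30, limma adjusted p = 0.0141). The co-receptor LRP5 (-0.19) and the receptor FZD4 (-0.06) were not called.

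LGR4, an R-spondin receptor related to LGR5, was the one tested gene of 6 in its list. It was measured at 20.4, 17.1, 18.7 and 21.8 FPKM in control libraries 1 to 4 and at 28.4, 22.6, 26.3 and 26.5 FPKM in DNMT3A libraries 1 to 4. All DNMT3A libraries were above all controls (log2 difference 0.40, limma adjusted p = 0.0131), whereas the groups of LGR5 overlapped; whether the 2 receptors differ in response was not tested. RSPO1, RSPO2, RSPO3 and RSPO4, the R-spondins that both receptors bind, were listed at 0. Of 16 secreted and membrane inhibitors 2 were tested and neither was called. DKK1, which blocks LRP co-receptors and is itself a Wnt target, was at 108 ± 2.20 FPKM in controls and 119 ± 15.0 FPKM in DNMT3A libraries (log2 difference 0.14, limma adjusted p = 0.276), and KREMEN1, its receptor, had a log2 difference of 0.05.

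In the list of Dishevelled and destruction complex genes, 16 of 18 were tested, 2 rose and none fell (12.5% called, beside 20.6%). These 2 were the tankyrases TNKS (log2 difference 0.28, limma adjusted p = 0.0203) and TNKS2 (0.28, adjusted p = 0.0472), which mark Axin proteins for degradation. DVL1 (0.06) and DVL3 (-0.07), the Dishevelled proteins with the highest levels, were not called. TNKS was not called when control library 1, 2 or 3, or library 1 or 3 of the DNMT3A group, was left out (adjusted p = 0.0516 to 0.0627), and TNKS2 without any of these or DNMT3A library 4 (adjusted p = 0.0631 to 0.121).

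Among nuclear partners 13 of 18 were tested, 3 rose and 2 fell (38.46% called, beside 20.6% of all tested genes). CHD8, a chromatin remodeller that binds beta-catenin and represses its targets, rose from 5.08 ± 0.406 to 7.79 ± 1.04 FPKM (log2 difference 0.53, limma adjusted p = 0.00459). HBP1, a repressor of Wnt target genes, rose with a log2 difference of 0.48 (adjusted p = 0.0422), and PYGO2, a co-activator, with 0.26 (adjusted p = 0.0461). TBL1X, a co-factor that exchanges repressors for activators, fell by 0.25 on the log2 scale (adjusted p = 0.0101). The other gene that fell was TLE1 (log2 difference -0.23, limma adjusted p = 0.0257). It changed less than these and so was not among the genes named by rule. CTNNB1 was at 33.9 ± 0.978 FPKM in controls and 31.5 ± 1.46 FPKM in DNMT3A libraries (SD, n = 4 each; log2 difference -0.11, limma adjusted p = 0.176), and AES, a short Groucho-family repressor, had a log2 difference of -0.28 that was not called (adjusted p = 0.0825). HBP1 lost its call in every fit without 1 library but that without DNMT3A library 2 (adjusted p = 0.0586 to 0.109), and PYGO2 lost it when library 1, 2 or 3 of either group was left out (adjusted p = 0.0881 to 0.118); AES was called without DNMT3A library 2 (adjusted p = 0.0324).

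Other direct targets moved both ways: 11 of 18 were tested, 3 rose and 2 fell (45.45% called, beside 20.6% of all tested genes). ID2, an inhibitor of basic helix-loop-helix factors, was at 139, 177, 164 and 137 FPKM in control libraries 1 to 4 and at 105, 99.7, 109 and 108 FPKM in DNMT3A libraries 1 to 4. The groups of ID2 were apart (log2 difference -0.54, limma adjusted p = 0.00321). TNFRSF19, a receptor of the tumour necrosis factor family, fell by 0.32 on the log2 scale (adjusted p = 0.00424). SOX9, a transcription factor of progenitor cells in the liver, rose with a log2 difference of 0.32 (adjusted p = 0.00853), and VEGFA, a growth factor for blood vessels, with 0.27 (adjusted p = 0.0285). The other gene that rose was PPARD (log2 difference 0.23, limma adjusted p = 0.0317), with all DNMT3A libraries above all controls. PPARD changed less than these and so was not among the genes named by rule. The growth genes CCND1 (-0.12, adjusted p = 0.188) and MYC (-0.14, adjusted p = 0.331) were not called. VEGFA lost its call when control library 1, 3 or 4, or library 1 or 3 of the DNMT3A group, was left out (adjusted p = 0.0682 to 0.0765).

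Of the pericentral liver genes, which beta-catenin keeps on near the central vein, 7 of 13 were tested, 1 rose and 2 fell. This was 42.86% called of few tested genes, beside 20.6% of all tested genes. SLC13A3, a dicarboxylate transporter, was at 7.51 ± 0.9799 FPKM in controls and 5.00 ± 0.503 FPKM in DNMT3A libraries (log2 difference -0.50, limma adjusted p = 0.00589). TBX3, a T-box repressor, fell by 0.36 on the log2 scale (adjusted p = 0.00466), and RHBG, an ammonium transporter, rose with 0.31 (adjusted p = 0.0215). GLUL, the glutamine synthetase that marks this zone, had a log2 difference of 0.13 and OAT, an ornithine aminotransferase, one of -0.09, and neither was called. RHBG lost its call without control library 1 (adjusted p = 0.0591) or control library 3 (adjusted p = 0.0652).

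The opposite, periportal zone had 4 of 10 genes tested, of which 1 rose and 2 fell. This was 75% called of only 4 genes, beside 20.6% of all tested genes. ASS1, an enzyme of the urea cycle, was at 29.3, 27.5, 26.8 and 23.4 FPKM in control libraries 1 to 4 and at 15.8, 16.8, 15.2 and 12.6 FPKM in DNMT3A libraries 1 to 4 (log2 difference -0.79, limma adjusted p = 0.000727). CPS1, the entry enzyme of the same cycle, fell by 0.20 on the log2 scale (adjusted p = 0.0455). PCK1, an enzyme of glucose synthesis, was at 0.272 ± 0.0513 FPKM in controls and 2.17 ± 0.4998 FPKM in DNMT3A libraries (log2 difference 1.30, adjusted p = 0.000208), and it passed the filter only through the group in which it was high. SLC7A2, a carrier of cationic amino acids, had a log2 difference of 0.34 (adjusted p = 0.0641). CPS1 lost its call in every fit without 1 library but that without DNMT3A library 1 (adjusted p = 0.0514 to 0.117). SLC7A2 was called in 5 of 16 alternatives, among them the fit without DNMT3A library 2 (adjusted p = 0.0184).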

How the data were processed

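The values are the FPKM that the authors deposited, 1 column per library, per the file headers. The submitters' processing notes name HISAT2 2.0.5 and hg38; the counting program is not given in the sources used here. Poly-T selected RNA was used, per the labels' protocols. Coordinates of all 58735 genes were identical to GENCODE release 29. Multiplied by gene length, 100% of values were whole multiples of the worth of 1 read (within 0.01 of a read), hence the recovered reads (15911019 to 17677093 per library). The authors' implied library total was between 0.9942 and 1.0388 times the recovered sum, highest in DNMT3A library 2.

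Groups came from sample titles. Genes with a mean of at least 1 FPKM over 8 libraries were transformed to log2(FPKM + 1) and tested with limma 3.58.1 in R 4.3.3 (intensity trend, Benjamini-Hochberg adjustment, threshold 0.05), tested first on simulated data. Single values and ratios had two-sided exact permutation tests (70 assignments, scipy 1.17.1). Alternatives were a pseudocount of 0.1, no filter, quantile normalization, scaling by median ratios, array weights, variance without trend, a replicate block, limma voom on recovered reads, and leaving out each library; levels per principal transcript length were added after seeing the data. Named were all members, DNMT3A, CTNNB1, up to 4 called genes with the largest change and 2 uncalled genes with the highest level per list, and the 3 nearest profiles of called members. The members and lists were chosen with earlier results of these data known. Promoter sequences are from RefSeq (GRCh38.p14).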

Additional observations from a re-analysis of the deposited data

Results flagged for a closer look

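In 6 of the 88 groups of 4 libraries examined for the named genes, 1 library stood far from the other 3 (its gap to the nearest over the group's range exceeded the 95% critical value of Dixon's test). Chance alone gives about 1 in 20 such groups. In the DNMT3A group, library 1 was high for CTNNB1 (33.64 FPKM, others 30.51 to 31.03) and for LRP6 (7.32 FPKM, others 6.183 to 6.319). Library 2 of that group was low for PCK1 (1.426 FPKM, others 2.393 to 2.472), and library 4 was low for MYC (42.98 FPKM, others 53.19 to 55.3). Among the controls, library 1 was high for DVL1 (26.83 FPKM, others 22.44 to 23.04) and library 4 for PORCN (2.113 FPKM, others 1.736 to 1.793). None of the 10 feedback genes and TCF factors was among them.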

How the results depend on the processing

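The 3 calls among the 9 tested genes were 3 under 7 of the alternatives with all libraries, where 16.2% to 32.3% of all tested genes were called. They were 1 without the filter, where 30436 genes were tested and 5.24% called. They ranged from 1 to 3 when 1 library was left out, where 13% to 21% of all tested genes were called. Calls among the other listed genes (20, periportal genes included) were 12 without the filter, where 5.24% of all genes were called, and 33 with array weights, where 32.3% were (20.6% in the reported analysis). They ranged from 11 to 22 when 1 library was left out. The number of genes whose groups did not overlap (2) was 1 with scaling by recovered reads and ranged from 2 to 4 when 1 library was left out, where 27.5% to 34% of all tested genes had such groups. With the replicate block, 3 of the tested genes (the same 3), 16 other listed genes and 1881 of all genes (2389 without it) were called; same-numbered libraries had correlations of 0.159, -0.082, -0.025 and 0.098, so the numbers were not taken to pair them. Signs turned only for small values: KREMEN1 was -0.0142 and OAT 0.0114 with array weights, and with 1 library left out KREMEN1 ranged from -0.0135 to 0.1032, DVL1 from -0.0207 to 0.1555 and TCF7 from -0.1281 to 0.0059. Of 688 log2 differences of 43 genes under 16 alternatives, 609 kept direction and side of the threshold, 64 fell short of it, 9 passed it and 6 turned sign; 26 genes kept both under all 16. Of these 16, RHBG was called in 13, TNKS in 10, VEGFA in 9, TNKS2 in 8, HBP1 and PYGO2 in 7 each, and CPS1 in 5. None of these genes was called without the filter (adjusted p = 0.0546 to 0.14). The causes were not tested. Reads per gene limited LEF1 alone among the members, and 4 libraries per group limit all intervals.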
